A study of Homo sapiens with 6 samples.

Results

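The nicotinic acetylcholine receptor subunits described here are 9 genes, CHRNA1, CHRNA3, CHRNA5, CHRNA7, CHRNA9, CHRNB1, CHRNB2, CHRND and CHRNE, out of the 23355 genes of the table that carry a gene symbol. The family was chosen by the values of CHRNA1, which was among the genes most raised when TAZ was silenced, and the question was whether its 8 partner subunits followed it. The levels of CHRNA1 are therefore given as a description, without a test. The cells were HFL-1, an established fibroblast line from human fetal lung. They received siNTC, a non-targeting control siRNA, or siTAZ #1 or siTAZ #2, different siRNAs against TAZ, and total RNA was taken 48 h after transfection. All groups were the same line under the same growth conditions, and no other gene was altered by design. Each of the 3 groups had 2 libraries, described as duplicate transfections of 1 line, so the tests measure the spread between these libraries only.

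Nicotinic receptors are acetylcholine-gated cation channels built from several subunits around a central pore. The muscle-type receptor of the neuromuscular junction joins CHRNA1 with CHRNB1, CHRND and either CHRNG, in the fetus, or CHRNE, in the adult, and cells retain in the endoplasmic reticulum subunits that do not find their partners. Neuronal receptors join subunits such as CHRNA3, CHRNA5 and CHRNB2, while CHRNA7 and CHRNA9 can form channels on their own, and airway and lung cells are among the non-neuronal cells known to hold some of them. TAZ, the product of WWTR1, is a transcriptional coactivator that acts with TEAD factors. The genes of muscle-type subunits are known in muscle for promoters with E-boxes, short elements bound by basic helix-loop-helix factors such as MYOD1 and MYOG.

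The promoters of CHRNA1 and CHRNB1 are shown because these muscle-type subunits had the most counts of the family. Each is the RefSeq window from 250 bases before the start site to 50 bases from it on, 5′ to 3′ on the strand of the gene, with E-boxes (CANNTG) in capitals. The table of promoters is from GRCh38.p14, and the coordinates are those of the single exact match on GRCh37, the assembly of hg19. For CHRNA1 (ENSG00000138435, chr2:175612320-175652663, minus strand) the window was chr2:175629151-175629450, inside the annotated gene. For CHRNB1 (ENSG00000170175, chr17:7348380-7361029, plus strand) it was chr17:7348130-7348429.
CHRNA1: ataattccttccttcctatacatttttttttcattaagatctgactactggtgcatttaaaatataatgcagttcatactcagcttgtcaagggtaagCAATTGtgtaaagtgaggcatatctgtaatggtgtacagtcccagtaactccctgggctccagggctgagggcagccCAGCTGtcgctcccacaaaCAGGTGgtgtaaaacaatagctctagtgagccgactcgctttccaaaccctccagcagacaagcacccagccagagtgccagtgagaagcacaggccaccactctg
CHRNB1: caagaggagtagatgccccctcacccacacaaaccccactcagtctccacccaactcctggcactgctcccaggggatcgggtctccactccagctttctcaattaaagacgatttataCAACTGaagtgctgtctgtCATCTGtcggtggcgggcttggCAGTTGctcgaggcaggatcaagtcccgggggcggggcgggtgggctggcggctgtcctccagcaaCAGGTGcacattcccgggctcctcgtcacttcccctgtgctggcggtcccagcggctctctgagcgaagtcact

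The CHRNA1 window held 3 E-boxes, at -152, -75 and -56 bases from the start, and the one at -75 was CAGCTG, the form preferred by MYOD1. The CHRNB1 window held 4, at -131, -112, -90 and -24. Of 27305 promoters of the same length, 15.5% held at least 3 E-boxes, 5.7% at least 4, and 17.7% at least 1 CAGCTG. The core of the TEAD motif, CATTCC, was searched on both strands, was found once in CHRNB1, at -16, without overlapping an E-box, and not in CHRNA1, and 14.0% of all promoters held it. Such matches were not limited to these 2 subunits. CHRNE held 4 E-boxes, 2 of them CAGCTG, and no TEAD core. CHRND held 2 E-boxes, no CAGCTG, and the TEAD core at -1. CHRNA3, CHRNA7, CHRNA9 and CHRNB2 held 1 E-box each and neither CAGCTG nor the TEAD core. These are matches of letters and not measured binding. Of the 9 members 8 had an entry in the table of promoters, and CHRNA5 had none.

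Libraries held between 15648055 and 32078188 counts on named genes. In replicate 2 of siTAZ #1, the deepest library, counts were nearly missing from RANGAP1 on chromosome 22 through the X and Y chromosomes. After scaling to library size, 439 of 458 genes there with a mean of at least 50 counts had less than 25% of their level in replicate 1. None of the 9 members lies there (0 of 9). For CHRNB1 and the list counts, values without that region stand beside the results. The fibroblast label was checked on 12 markers, all of them tested. Their summed level was 43100 to 43200 CPM (counts scaled to library size, in the usual unit) with siNTC. It was lower after both siRNAs, at 31600 to 34000 CPM with siTAZ #1 and 33500 to 35300 CPM with siTAZ #2. Single markers went both ways. At an FDR under 0.05, 3 of 12 rose and 4 fell with siTAZ #1 (10.8% and 9.78% of all genes tested). With siTAZ #2, 2 rose and 6 fell (14.1% and 14.4%). For WWTR1, the target, the control level of 132 ± 1.01 CPM compared with 27.4 ± 1.42 CPM after siTAZ #1 and 44.6 ± 2.14 CPM after siTAZ #2 (SD, n = 2 each). It fell 4.8-fold (log2 fold change -2.26, SE 0.10, FDR 0.000617) and 2.95-fold (-1.56, SE 0.10, FDR 0.000681) by edgeR's quasi-likelihood test.

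Among the muscle-type subunits, CHRNA1 carries the main part of the acetylcholine binding site. It had 13 and 8 counts in the siNTC libraries, 235 and 415 with siTAZ #1, and 735 and 680 with siTAZ #2. Normalized for depth, these were 0.824 and 0.505 CPM with siNTC, 15.2 and 12.7 CPM with siTAZ #1, and 34.4 and 41.1 CPM with siTAZ #2. Every siTAZ library was above both siNTC libraries, and both siTAZ #2 libraries were above both siTAZ #1 libraries. This only describes the gene that chose the family. The group means were 0.665 ± 0.226, 13.9 ± 1.72 and 37.7 ± 4.75 CPM (SD, n = 2 each). CHRNA1 was 20.8-fold higher with siTAZ #1 than with siNTC (log2 fold change 4.38, SE 0.28) and 56.2-fold higher with siTAZ #2 (5.81, SE 0.30), and it stood 2.71-fold lower with siTAZ #1 than with siTAZ #2 (log2 -1.44, SE 0.23). By log2 fold change it was number 16 of 14053 genes with siTAZ #1 and number 6 with siTAZ #2. The siNTC level rests on 21 counts in all, so the size of both folds against it is uncertain. Leaving out a siNTC library gave log2 fold changes of 4.06 or 4.76 with siTAZ #1 and 5.49 or 6.19 with siTAZ #2, and without replicate 2 of siTAZ #1 the former was 4.5. In bulk RNA, a change in the number of cells that express a gene cannot be told apart from a change in RNA per cell.

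**Figure D1:**
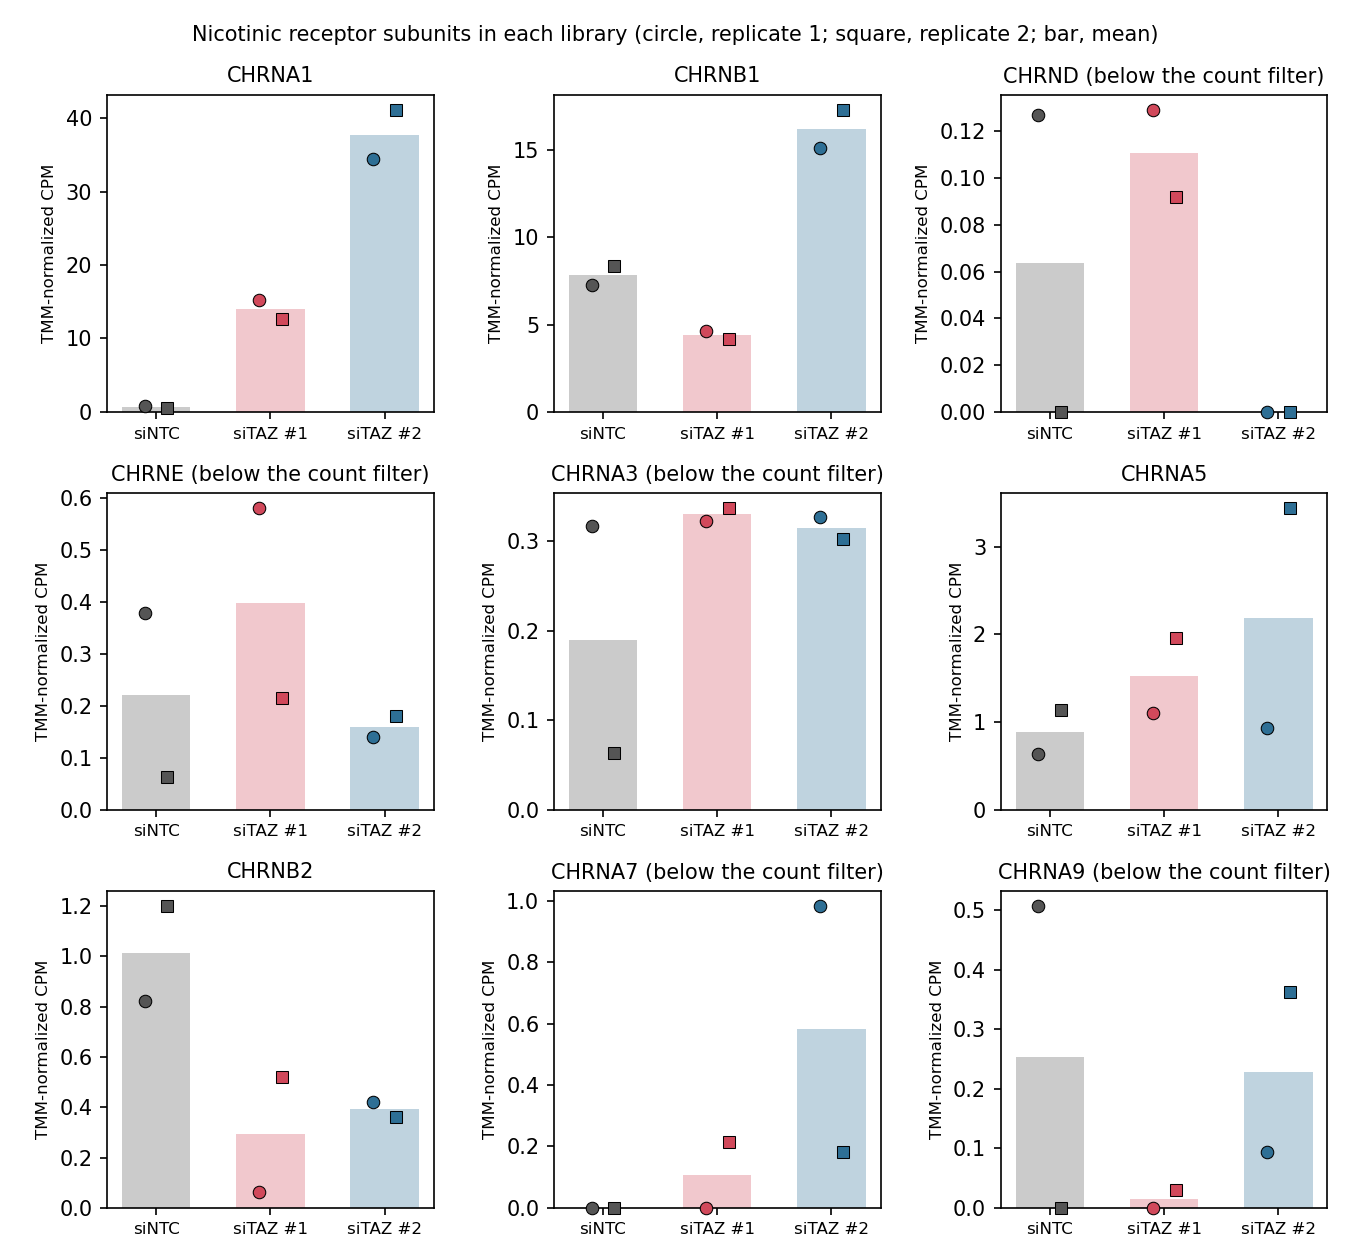
Each panel plots 1 subunit in TMM-normalized CPM (linear axis from 0, scales differ between panels) for siNTC, siTAZ #1 and siTAZ #2, with circles for replicate 1, squares for replicate 2 and bars for the mean of 2 libraries. CHRNA1 was higher with both siRNAs, CHRNB1 was lower with siTAZ #1 and higher with siTAZ #2, and the 5 panels marked as below the count filter hold at most 24 counts per group.

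CHRNB1, the beta subunit of the same receptor, changed in opposite directions with the 2 siRNAs. Its counts were 115 and 133 with siNTC, 72 and 137 with siTAZ #1, and 323 and 286 with siTAZ #2. On the CPM scale these were 7.29 and 8.39 with siNTC, 4.65 and 4.2 with siTAZ #1, and 15.1 and 17.3 with siTAZ #2. The siTAZ #1 libraries lay below both siNTC libraries and the siTAZ #2 libraries above both, without overlap. CHRNB2, which was not called, also lay below siNTC without overlap with both siRNAs. CHRNA3 with siTAZ #1 and CHRNA7 with siTAZ #2 lay above siNTC without overlap, on few counts. The share of all genes that separate in this way was not counted. With siTAZ #1, CHRNB1 fell from 7.84 ± 0.78 to 4.42 ± 0.314 CPM (SD, n = 2), which is 1.77-fold (log2 fold change -0.83, SE 0.20, 95% interval -1.31 to -0.34, FDR 0.0354). With siTAZ #2 it rose 2.06-fold, to 16.2 ± 1.54 CPM (log2 fold change 1.04, SE 0.19, 95% interval 0.57 to 1.52, FDR 0.0127). The direct comparison of the siRNAs gave a level 3.66-fold lower with siTAZ #1 than with siTAZ #2 (log2 -1.87, SE 0.20, 95% interval -2.36 to -1.38, FDR 0.00227).

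The difference between the siRNAs passed the threshold under all 18 alternatives, with log2 values from -1.96 to -1.76 and an FDR of 0.0234 at most. Among the 18 is the reported fit itself at an FDR threshold of 0.1, which cannot lose a call. The changes against siNTC kept their direction under the same 18 alternatives, but their calls were less stable. Leaving out 1 library leaves a single library in its group, whose spread is then taken from the remaining groups. The fall with siTAZ #1 was called in 10 of 18, and it was lost, among others, without replicate 1 or replicate 2 of siNTC (FDR 0.108 and 0.171), without replicate 2 of siTAZ #1 (0.0803), without either siTAZ #2 library (0.0707 and 0.0682), and with the exact test (0.193) or a fit of only 4 libraries (0.0714). Without the genes of the region from RANGAP1 to the end of Y its FDR was 0.0163. The rise with siTAZ #2 was called in 14 of 18, and it was lost without replicate 1 or replicate 2 of siNTC (FDR 0.092 and 0.0649) and without replicate 1 or replicate 2 of siTAZ #2 (0.0502 and 0.0805).

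**Figure D2:**
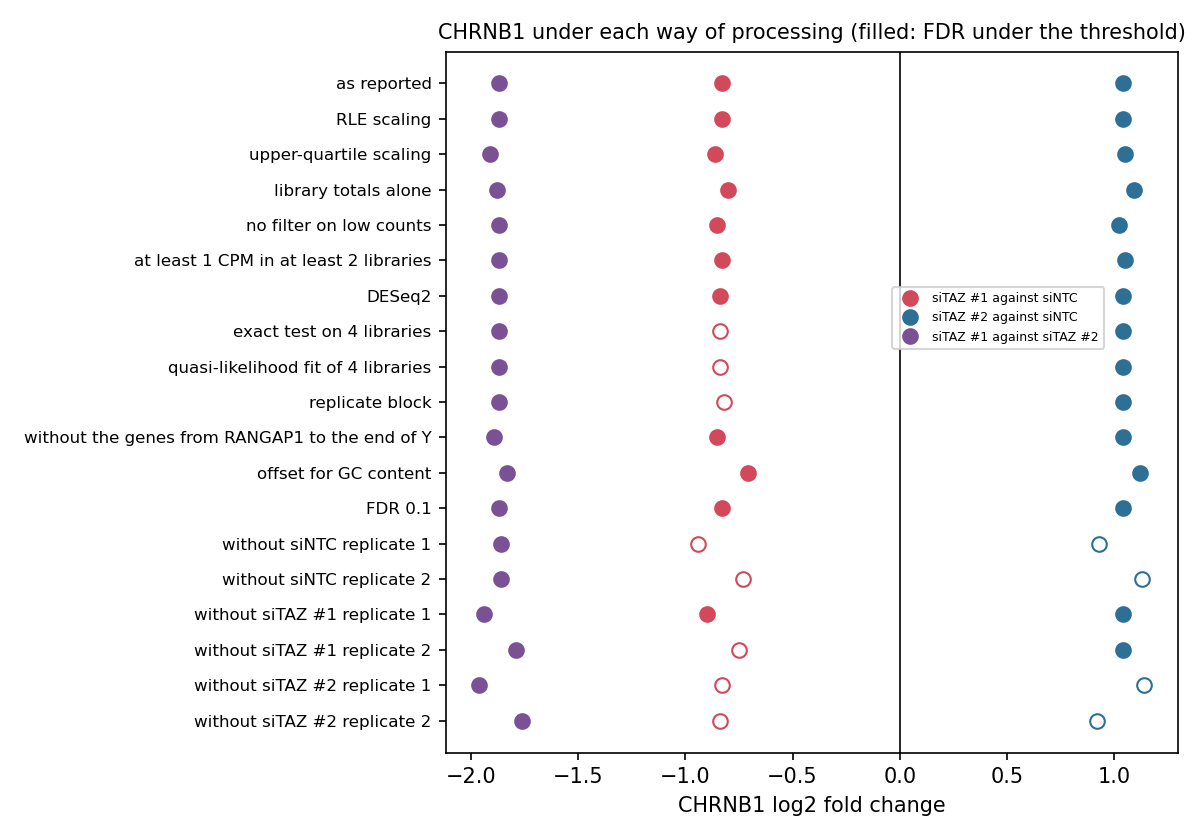
The log2 fold change of CHRNB1 (x axis) is plotted for the reported fit and 18 alternatives (y axis), in red for siTAZ #1 against siNTC, blue for siTAZ #2 against siNTC and purple for siTAZ #1 against siTAZ #2, with filled circles where the FDR was under the threshold. The purple circles are all filled and lie between -1.96 and -1.76, while 8 red and 4 blue circles are open.

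The remaining muscle-type subunits were at trace level in every group. CHRND, the delta subunit, had 2 and 0 counts with siNTC, 2 and 3 with siTAZ #1, and 0 and 0 with siTAZ #2, where its 0 counts allow up to 0.0972 CPM. CHRNE, the adult epsilon subunit, had 6 and 1 counts with siNTC, 9 and 7 with siTAZ #1, and 3 and 3 with siTAZ #2. With siTAZ #1 CHRNE stood at 1.5 times its siNTC level by pooled counts (interval 0.585 to 4.32), and with siTAZ #2 at 0.714 times (0.198 to 2.48), so a change was not detectable at this depth. The exons of CHRNE overlap those of C17orf107 by 918 bases and those of MINK1 by 291 bases on the opposite strand. The strand setting of the counting is not given in the sources used here, so how reads within these overlaps were counted is not known. CHRNG, the fetal gamma subunit, which is no member, had at most 1 count in a library.

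Compared per length of transcript, the order of the muscle-type subunits differed between groups. With siNTC, CHRNB1 was highest, at 3.06 CPM per kb (2.85 and 3.28 in the libraries), and CHRNA1 followed at 0.335 (0.254 to 0.415). With siTAZ #1, CHRNA1 was highest, at 7.03 CPM per kb (6.42 to 7.64), above CHRNB1 at 1.73 (1.64 to 1.81). With siTAZ #2, CHRNA1 was at 19 CPM per kb (17.3 to 20.7) and CHRNB1 at 6.32 (5.9 to 6.75). The ranges of these subunits did not overlap within any group. CHRNE was at 0.0648 to 0.16 CPM per kb and CHRND at 0 to 0.0373, as group means.

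**Figure D3:**
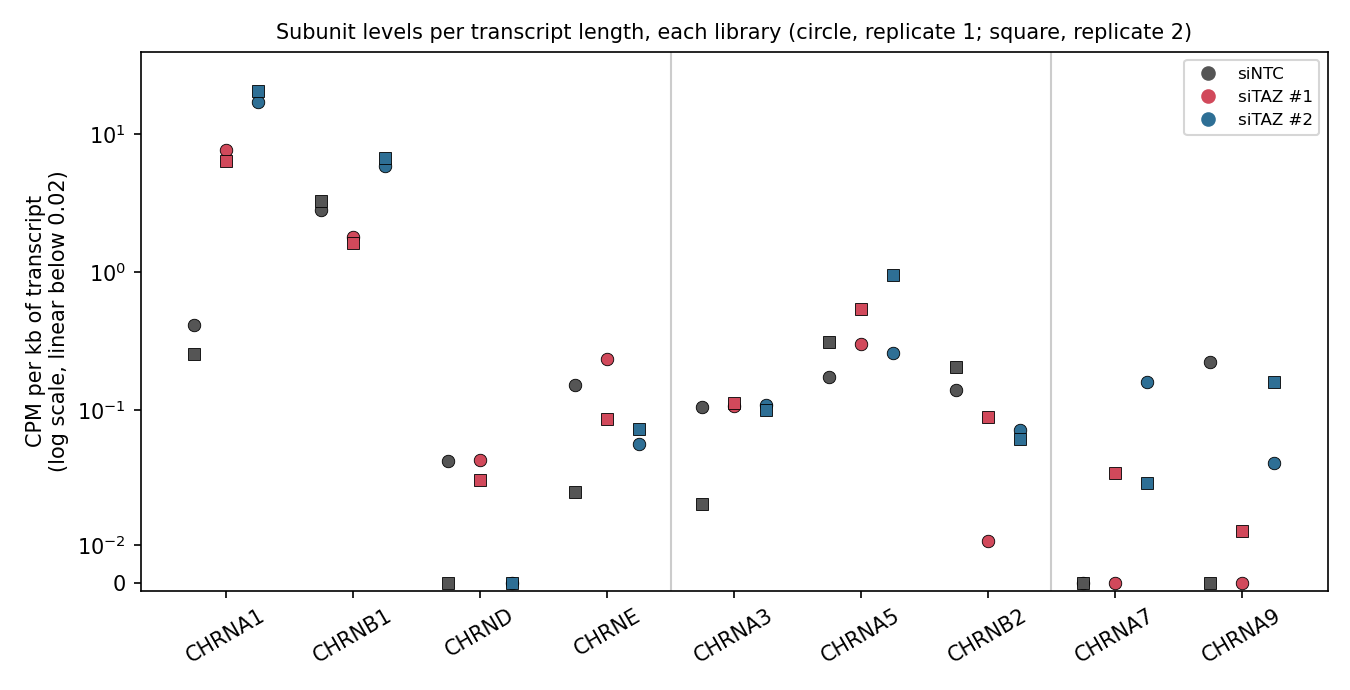
CPM per kb of transcript (y axis, log scale that is linear below 0.02) is plotted for each library and each of the 9 subunits, with muscle-type, neuronal and homomeric subunits between the vertical lines. CHRNA1 lay below CHRNB1 with siNTC and above it with both siRNAs, and with siTAZ #1 and siTAZ #2 no other subunit reached 1 CPM per kb.

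Of the neuronal subunits, CHRNA5, an accessory subunit that needs other subunits to form a channel, had 10 and 18 counts with siNTC, 17 and 64 with siTAZ #1, and 20 and 57 with siTAZ #2. Each siRNA group had 1 library within the siNTC range of 0.634 to 1.14 CPM, and the groups overlapped. The log2 fold change was 0.81 with siTAZ #1 (SE 0.74, 95% interval -1.02 to 2.64, FDR 0.486) and 1.28 with siTAZ #2 (SE 0.75, 95% interval -0.55 to 3.12, FDR 0.251). The siTAZ #2 value rested on replicate 2, since it was 0.05 without that library and 1.95 without replicate 1, and the siTAZ #1 value ranged from 0.31 to 1.28 when 1 library was left out. CHRNB2, the beta subunit of most brain nicotinic receptors, had 13 and 19 counts with siNTC, 1 and 17 with siTAZ #1, and 9 and 6 with siTAZ #2. CHRNB2 passed the filter on low counts through siNTC, the group where it was higher, so lower siTAZ values are favored by that filter. Its log2 fold changes of -1.59 with siTAZ #1 (SE 0.81, 95% interval -3.58 to 0.40, FDR 0.221) and -1.35 with siTAZ #2 (SE 0.82, 95% interval -3.36 to 0.66, FDR 0.27) did not pass the test. The siTAZ #1 value was -0.95 without replicate 1 of siTAZ #1 and -3.83 without replicate 2. Between the siRNAs, neither CHRNA5 (log2 -0.47, 95% interval -2.19 to 1.25, FDR 0.659) nor CHRNB2 (log2 -0.24, 95% interval -2.37 to 1.88, FDR 0.861) passed, and the intervals hold changes of over 2-fold in either direction.

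CHRNA3, which forms ganglionic receptors with CHRNB4, had 5 and 1 counts with siNTC, 5 and 11 with siTAZ #1, and 7 and 5 with siTAZ #2. Its pooled level was 1.75 times that of siNTC with siTAZ #1 (interval 0.652 to 5.47) and 1.67 times with siTAZ #2 (0.579 to 5.41). The genes CHRNA3 and CHRNA5 overlap by 2218 bases on chromosome 15 on opposite strands, with 0 bases of overlap between the exons of their main transcripts. Their neighbor CHRNB4 had at most 4 counts in a library.

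The homomeric subunits were also near 0. CHRNA7 had 0 and 0 counts with siNTC, 0 and 7 with siTAZ #1, and 21 and 3 with siTAZ #2. Of its 24 counts with siTAZ #2, 21 came from 1 library, so no fold is given. CHRNA7 shares 42.4% of the 50-base stretches of its transcript with CHRFAM7A, a partly duplicated copy with 3 and 6 counts with siNTC, 0 and 5 with siTAZ #1, and 15 and 3 with siTAZ #2, so the assignment between these copies is uncertain. CHRNA9 had 8 and 0 counts with siNTC, 0 and 1 with siTAZ #1, and 2 and 6 with siTAZ #2, and the siNTC level rested on a single library.

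A test could be made for 4 of the 9 members, since CHRNA3, CHRNA7, CHRNA9, CHRND and CHRNE were under the filter on low counts. CHRNA1 passed that filter through its level in the siTAZ groups, and CHRNB2 through its level in siNTC, where it was higher. Of the 3 tested partners, none rose (0 of 3) and 1 fell with siTAZ #1, and 1 rose and 0 fell with siTAZ #2, in each case CHRNB1. Over all 14053 genes tested, 10.8% were higher and 9.78% lower with siTAZ #1 than with siNTC, and 14.1% were higher and 14.4% lower with siTAZ #2. Between the siRNAs, 0 of 3 partners were higher and 1 was lower with siTAZ #1, against 15.2% and 13.4% of all genes. With 3 partners tested, such counts cannot be set apart from the background. Both comparisons with siNTC share the same control libraries, so their values stand side by side and are not independent of each other.

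**Figure D4:**
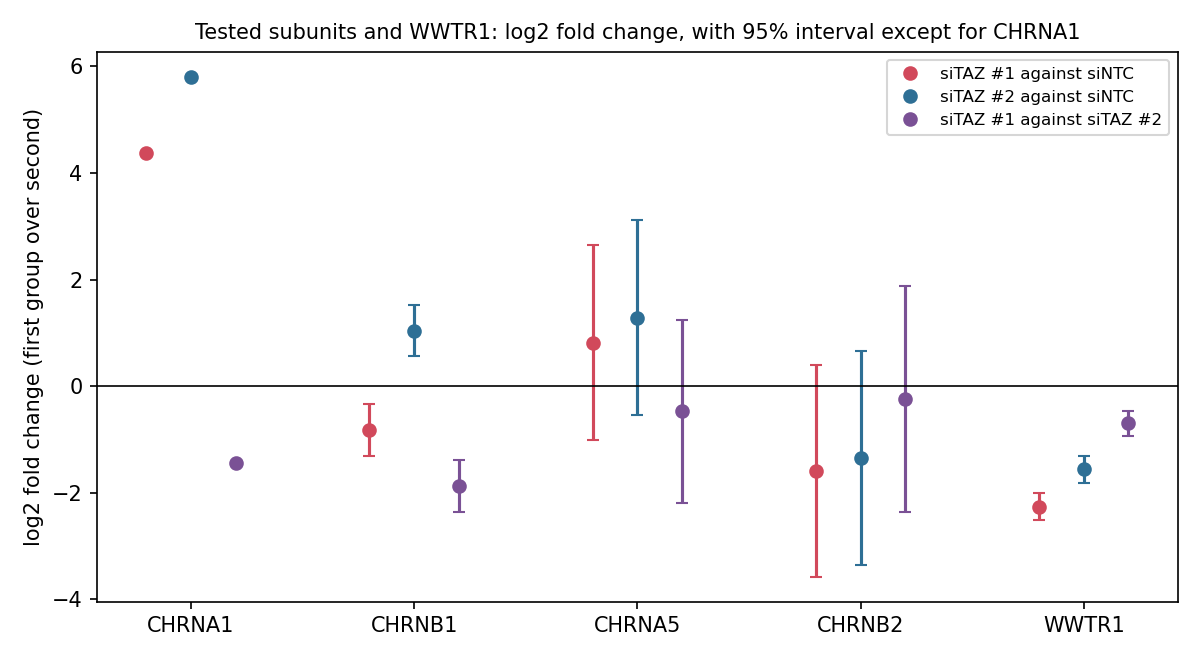
Log2 fold changes (y axis, first group over second) are plotted for the 4 tested subunits and WWTR1, with 95% intervals except for CHRNA1, which chose the family. The intervals of CHRNB1 lie below 0 with siTAZ #1, above 0 with siTAZ #2 and below 0 for the difference, whereas those of CHRNA5 and CHRNB2 include 0.

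Around each member the nearest annotated gene on either side was read as well. CHN1, a Rac GTPase-activating protein, lies 10873 bases from CHRNA1 on its 5′ side, since both genes are on the minus strand. CHN1 was at 99 and 88.3 CPM with siNTC, 128 and 127 CPM with siTAZ #1, and 152 and 133 CPM with siTAZ #2. It rose with siTAZ #1 (log2 fold change 0.44, SE 0.10, FDR 0.0316) and with siTAZ #2 (0.61, SE 0.10, FDR 0.009). The first of these calls was lost under 7 of 18 alternatives, including without replicate 1 or replicate 2 of siNTC (FDR 0.107 and 0.199), and the second was lost without replicate 2 of siNTC (0.0835) and without replicate 1 of siTAZ #2 (0.0537). H3F3AP4, on the other side of CHRNA1, is listed at 0 in all 6 libraries.

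ZBTB4, a zinc finger repressor that follows CHRNB1 at 1655 bases on the opposite strand, was at 164 and 164 CPM with siNTC, 91.4 and 92 CPM with siTAZ #1, and 160 and 174 CPM with siTAZ #2. It fell with siTAZ #1 (log2 fold change -0.84, SE 0.08, FDR 0.00235), while with siTAZ #2 the value was 0.02 (SE 0.08, FDR 0.85). The difference between the siRNAs was -0.86 (SE 0.08, FDR 0.00156). FGF11, which ends 123 bases before CHRNB1, was at 0.215 CPM or less in every library. Next to the weakly expressed members, SLC25A11, a mitochondrial carrier beside CHRNE, fell with siTAZ #1 (log2 fold change -0.70, SE 0.14, FDR 0.0229), and ADAR, an RNA editing enzyme beside CHRNB2, fell with siTAZ #2 (-0.50, SE 0.08, FDR 0.00804). Without either siNTC library the FDR of SLC25A11 was 0.136 and 0.122, and without any 1 of the siNTC or siTAZ #2 libraries that of ADAR was 0.0502 to 0.0702. The log2 fold change of ADAR stayed between -0.54 and -0.50 in these fits.

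ARHGAP11A, which follows CHRNA7, was at 106 and 114 CPM with siNTC, 121 and 166 CPM with siTAZ #1, and 72.4 and 53.8 CPM with siTAZ #2. It fell with siTAZ #2 (log2 fold change -0.80, SE 0.20, FDR 0.0322) and was higher with siTAZ #1 than with siTAZ #2 (1.18, SE 0.20, FDR 0.00915). The fall was lost without either siNTC library (FDR 0.111 and 0.146) and without replicate 2 of siTAZ #2 (0.129), and the difference was lost without replicate 2 of siTAZ #2 (0.054). RBM47, an RNA-binding protein whose gene neighbors CHRNA9, was also higher with siTAZ #1 than with siTAZ #2 (1.46, SE 0.35, FDR 0.0271), but it passed against siNTC with neither siRNA (0.75, FDR 0.176, and -0.71, FDR 0.191). That difference was lost under 7 of 18 alternatives, among them without either siNTC library (0.0559 and 0.0571) and without either siTAZ #2 library (0.0738 and 0.129).

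Genes of the cholinergic system and related genes, among them 29 other Cys-loop receptor subunits and the factors that bind E-boxes, were read from 7 lists with 99 genes, of which 56 were tested. With siTAZ #1, 6 rose and 8 fell, where the background over all genes was 10.8% higher and 9.78% lower. With siTAZ #2, 11 rose and 10 fell, where it was 14.1% and 14.4%. Without the region from RANGAP1 to the end of Y, 9 rose and 8 fell with siTAZ #1, and 12 rose and 10 fell with siTAZ #2. Each list below is to be read against the same background, and with 1 to 18 genes tested per list none is called particular. Of the other nicotinic subunits only CHRNA10, which joins CHRNA9 in hair cells, had enough counts for a test, and its log2 fold changes of 1.14 (FDR 0.408) and 0.67 (FDR 0.629) did not pass.

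Synaptic clustering genes place receptors under the nerve ending: agrin (AGRN) binds LRP4, which activates the kinase MUSK, and RAPSN then gathers the receptors. Of 18 tested, 1 rose and 2 fell with siTAZ #1 and 4 rose and 4 fell with siTAZ #2, with a median log2 fold change of 0.13 and 0.06 (0.02 and 0.01 over all genes). AGRN was at 173 and 191 CPM with siNTC, 181 and 202 CPM with siTAZ #1, and 417 and 398 CPM with siTAZ #2, and it rose with siTAZ #2 (log2 fold change 1.16, SE 0.10, FDR 0.00114), or by 0.57 with an offset for GC content. LRP4 rose with siTAZ #2 by 1.58 (SE 0.17, FDR 0.00229), and LAMB2, the laminin chain of the synaptic basement membrane, by 1.15 (SE 0.08, FDR 0.000838). All 3 passed as well in the direct comparison, with log2 values of -1.09, -1.35 and -1.10 for siTAZ #1 against siTAZ #2 (FDR 0.00144, 0.00351 and 0.00101).

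MUSK and RAPSN themselves were too low to test. MUSK had 2 and 1 counts with siNTC, 7 and 8 with siTAZ #1, and 12 and 6 with siTAZ #2, and RAPSN had at most 6 counts in a library. SNTB1, a syntrophin of the dystrophin complex, fell with siTAZ #2 (log2 fold change -1.92, SE 0.16, FDR 0.00118) and was at 0.24 (FDR 0.332) with siTAZ #1. PAK1, a kinase that acts on the actin skeleton, fell with siTAZ #1 (-0.81, SE 0.12, FDR 0.00797) and with siTAZ #2 (-1.15, SE 0.12, FDR 0.00206). The first of these calls was lost without replicate 1 or replicate 2 of siNTC (FDR 0.0727 and 0.0758). NRG1, a ligand of ERBB receptors known to raise receptor gene transcription in muscle, rose with siTAZ #1 (1.60, SE 0.17, FDR 0.00363), and its co-receptor ERBB2 fell (-0.83, SE 0.14, FDR 0.0138), a call lost without replicate 2 of siNTC (0.0944).

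Among 9 tested chaperones and Ly6 modulators, proteins that help nicotinic receptors fold or tune their response, none passed with siTAZ #1 (0 rose, 0 fell), and with siTAZ #2 3 rose and 0 fell. One of the 9, TMEM35, a chaperone gene on the X chromosome, lies in the region with missing counts and was at 24.5 and 20.9 CPM with siNTC, 63.8 and 0.981 CPM with siTAZ #1, and 34.4 and 38.2 CPM with siTAZ #2. Its siTAZ #1 value of 0.50 (SE 1.39, FDR 0.826) ranged from -4.52 to 1.49 over the alternatives, and so rests on the library with missing counts. LYPD1, a Ly6 protein that binds nicotinic receptors, rose with siTAZ #2 by 1.08 (SE 0.13, FDR 0.00298), and LY6E, a Ly6 protein of the cell surface, by 0.65 (SE 0.08, FDR 0.00336), or by 0.33 for LY6E with an offset for GC content. LYNX1, a toxin-like Ly6 protein, rose with siTAZ #2 by 1.69 (SE 0.45, FDR 0.0399), a call that was lost without any 1 of the siNTC or siTAZ #2 libraries (highest FDR 0.172).

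Of 4 tested genes for the synthesis, transport and breakdown of acetylcholine, 1 rose and 2 fell with siTAZ #1 (background 10.8% and 9.78%), and 0 rose and 1 fell with siTAZ #2 (14.1% and 14.4%). SLC44A1, a choline transporter, fell with siTAZ #1 (log2 fold change -0.97, SE 0.11, FDR 0.00413) and with siTAZ #2 (-1.29, SE 0.11, FDR 0.00129), and the first call was lost without replicate 2 of siNTC (0.0513). CHKA, the kinase that turns choline to phosphocholine, rose with siTAZ #1 (0.91, SE 0.15, FDR 0.0105), which was lost without replicate 1 or replicate 2 of siNTC (0.0887 and 0.086). BCHE, butyrylcholinesterase, fell with siTAZ #1 (-1.14, SE 0.26, FDR 0.0314), a call lost under 7 of 18 alternatives, among them without either siNTC library (0.144 and 0.0579) and without either siTAZ #2 library (0.0689 and 0.0683). CHAT, which makes acetylcholine, and SLC18A3, which loads it into vesicles, had at most 4 counts in a library.

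CHRM2, the muscarinic receptor known in lung fibroblasts and airway smooth muscle and the only 1 of 5 with enough counts, fell with siTAZ #1 (log2 fold change -0.85, SE 0.14, FDR 0.0118) and with siTAZ #2 (-1.12, SE 0.14, FDR 0.00373). The first call was lost without replicate 1 or replicate 2 of siNTC (0.0773 and 0.0926). Of 9 tested subunits of the related GABA and glycine receptors, 2 rose with siTAZ #1 and none (0 of 9) was called with siTAZ #2. GABRE and GABRQ, also on this list, lie in the region with missing counts. GABRA2 had 9 and 18 counts with siNTC and passed the filter on low counts through the siTAZ groups, where it was higher. A rise of GABRA2 is therefore favored by that filter. GABRB1 rose with siTAZ #1 by 1.94 (SE 0.26, FDR 0.00652) and GABRA2 by 2.09 (SE 0.42, FDR 0.0207), the latter lost without replicate 1 or replicate 2 of siNTC (0.0999 and 0.0574) and without replicate 2 of siTAZ #2 (0.0501).

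**Figure D5:**
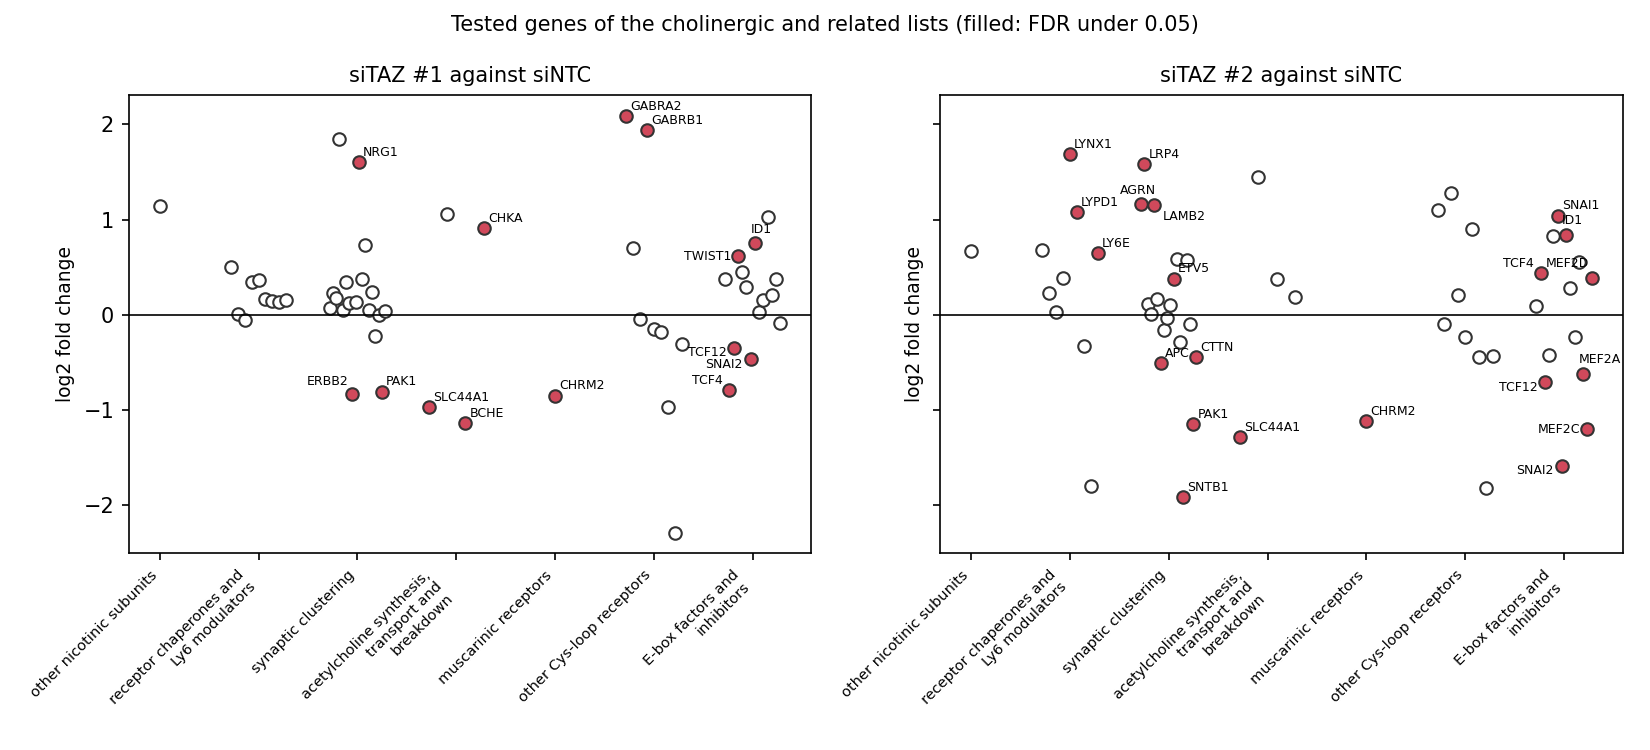
Log2 fold changes (y axis) of the 56 tested list genes are plotted by list (x axis) for siTAZ #1 (left) and siTAZ #2 (right) against siNTC, and filled, named circles mark an FDR under 0.05. Genes of the same list lie on both sides of 0, and AGRN, LRP4 and LAMB2 are filled with siTAZ #2 only, while NRG1 and ERBB2 are filled with siTAZ #1 only.

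The last list holds the factors that bind E-boxes, their inhibitors and their MEF2 partners. Of 14 tested, 2 rose and 3 fell with siTAZ #1 (background 10.8% and 9.78%), and 4 rose and 4 fell with siTAZ #2 (14.1% and 14.4%). SNAI2, a repressor that binds E-boxes, fell with siTAZ #2 (log2 fold change -1.59, SE 0.12, FDR 0.000922) and with siTAZ #1 (-0.47, SE 0.12, FDR 0.0423), the latter called in 9 of 18 alternatives and lost without either siNTC library (0.174 and 0.194) and without either siTAZ #2 library (0.0691 and 0.0619). TCF12, a widely expressed partner of MYOD1, fell with siTAZ #1 (-0.35, SE 0.07, FDR 0.0209) and with siTAZ #2 (-0.71, SE 0.07, FDR 0.00189). Its siTAZ #1 call was lost with the exact test on 4 libraries (FDR 0.58), with a block for replicate number (0.0621) and without either siNTC library. TCF4, another partner of MYOD1, fell with siTAZ #1 (-0.79, SE 0.10, FDR 0.00561) and rose with siTAZ #2 (0.44, SE 0.10, FDR 0.0243). The TCF4 calls were lost without replicate 1 of siNTC (0.0613) for the fall, and without any 1 of the siNTC or siTAZ #2 libraries (highest FDR 0.162) for the rise. MEF2C, a muscle and heart factor, fell with siTAZ #2 (-1.20, SE 0.20, FDR 0.00916), lost without either siNTC library (0.0574 and 0.0578) or replicate 1 of siTAZ #2 (0.0616). MYOD1 had 0 counts in 5 libraries and 1 in the other, and MYOG had 2 and 0 counts with siNTC, 0 and 8 with siTAZ #1, and 3 and 1 with siTAZ #2.

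Muscle markers were read beside these values because CHRNA1 is best known from muscle. Of 22 markers 11 were tested, none was called with siTAZ #1 (0 of 11), and with siTAZ #2 only DES, desmin, rose, by 0.99 (SE 0.27, FDR 0.0392), which was lost under 8 of 18 alternatives, among them without any 1 of the siNTC or siTAZ #2 libraries (highest FDR 0.174). The summed level of the 22 markers was 49.3 to 51 CPM with siNTC, 56.1 to 84.1 CPM with siTAZ #1, and 51.6 to 83.9 CPM with siTAZ #2. Most of it was ACTA1, skeletal actin, at 37.2 and 38.4 CPM with siNTC, 65.1 and 39.1 CPM with siTAZ #1, and 66 and 37.3 CPM with siTAZ #2, which was not called (FDR 0.38 and 0.364). The part of this in the CHRNA1 values was not tested.

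The 5 genes whose pattern was most like that of CHRNA1 were found by the Euclidean distance between log2 CPM values over 6 libraries, centered on siNTC. The nearest was CCDC68, a centrosome protein, at a distance of 1.64, with mean levels of 1.96, 23.2 and 55.7 CPM for siNTC, siTAZ #1 and siTAZ #2. It was followed by SLC6A15, a transporter of neutral amino acids, at 1.92, with 10.4, 276 and 221 CPM in the same order of groups. ICOSLG (3.37), CXADR (3.61) and LOC729950 (3.64) were farther away. Like CHRNA1, CCDC68 was higher with siTAZ #2 than with siTAZ #1, whereas SLC6A15 was not. These genes were picked for their likeness to CHRNA1 in the same 6 libraries, so a shared pattern follows from the choice and is no separate result.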

How the data were processed

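Deposited values were raw read counts per gene for 6 libraries. The authors sequenced on an Ion Proton, aligned with TMAP (build hg19) and made the counts with HTSeq (0.6.1 in the submitters' processing notes), without normalization. The strand setting is not given in the sources used here. Of 23368 rows, 13 held a date in place of a symbol (0.0458% to 0.0506% of counts) and were left out. The software was R 4.3.3 and edgeR 4.0.16. After filterByExpr by group and TMM scaling, glmQLFit and glmQLFTest (the quasi-likelihood test) were run in 1 fit of 6 libraries, with Benjamini-Hochberg adjustment (FDR) over 14053 genes and a threshold of 0.05. SE is the log2 fold change over the root of F, and 95% intervals use the degrees of freedom of that test. Members under the filter were described by pooled counts with exact intervals, which cover counting error only. DESeq2 1.42.0 was an alternative. The code of the fit was run on simulated counts with less spread than these data and no region of missing counts. That run checks the code and not the calls made here. Positions came from GENCODE on GRCh37, and promoters from RefSeq.

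The members and gene lists were chosen with earlier results of these data known. Named genes were all members, WWTR1, up to 4 called genes per list by lowest FDR, the 5 genes nearest to CHRNA1, and the neighbors of members. LRP4, NRG1, ERBB2, MUSK, RAPSN, CHRNA10, CHRNG, CHAT, SLC18A3, MYOD1, MYOG, TMEM35, GABRE, GABRQ, ACTA1 and CHRFAM7A are outside this rule and were named for their role.

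Marker lists for other cells were read once. Over all genes tested, 10.8% rose and 9.78% fell with siTAZ #1, and 14.1% rose and 14.4% fell with siTAZ #2. Fibroblast markers had 3 rises and 4 falls of 12 tested with siTAZ #1, and 2 and 6 with siTAZ #2. Of 4 tested epithelial markers 0 were called with siTAZ #1, and KRT19 fell with siTAZ #2 (log2 fold change -1.59, FDR 0.0482), a call lost in 12 of 18 alternatives and without the region of missing counts (0.0585). Endothelial markers (2 tested) and leukocyte markers (1 tested) had 0 calls with siTAZ #1 and 1 fall each with siTAZ #2. Neuronal markers (4 tested) had 1 rise and 1 fall with siTAZ #1, and 1 fall with siTAZ #2.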

Additional observations from a re-analysis of the deposited data

Results flagged for a closer look

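CHRNB1 differed between the siRNAs: its log2 level was lower with siTAZ #1 than with siTAZ #2 by a difference of -1.87 (SE 0.20, FDR 0.00227 by edgeR's quasi-likelihood test), with changes of -0.83 and 1.04 against the same siNTC libraries. Both siTAZ #1 libraries lay below and both siTAZ #2 libraries above the siNTC range, a separation whose share over all genes was not counted. The target WWTR1 fell with both siRNAs, and its difference between them was -0.70 (FDR 0.00499), a level 1.63-fold lower with siTAZ #1, which did not pass in the exact test on 4 libraries (FDR 0.236).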

How the results depend on the processing

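Of 18 alternatives, 6 leave out 1 library, and another is the reported fit at an FDR threshold of 0.1, which cannot lose a call. Partners that fell with siTAZ #1 went from 1 to 0 with the exact test on 4 libraries, the quasi-likelihood fit of 4 libraries and the replicate block, and ranged from 0 to 1 when 1 library was left out. Partners that rose with siTAZ #2 stayed at 1, CHRNB1, in the 12 alternatives that leave out no library. As given above, that call was lost without a siNTC or a siTAZ #2 library. Without either siTAZ #1 library CHRNA7 passed the filter as well, but through siTAZ #2, the group where it was high. There 21 of its 24 counts came from 1 library, so it is not counted as a partner that rose. List genes that rose with siTAZ #1 were 3 with the exact test, 3 with the replicate block and 2 to 11 without 1 library, and those that fell were 0, 5 and 1 to 11. With siTAZ #2, 5 rose with the replicate block, 5 to 15 rose and 6 to 11 fell without 1 library. The difference between the siRNAs turned to 0.74 for CHRNA5 without siTAZ #2 replicate 2 (range -1.14 to 0.74 without 1 library) and to 0.41 for CHRNB2 without siTAZ #1 replicate 1 (range -2.48 to 0.41). Deviations between replicates had correlations of 0, 0.01 and -0.17 between groups, which cannot tell whether libraries were paired by replicate number. The replicate block left all CHRNB1 directions as they were, though the fall with siTAZ #1 was lost (FDR 0.0781). Over all genes, 1515 rose and 1374 fell with siTAZ #1, against 569 and 492 in the exact test, 868 and 823 with the block, and 279 to 2496 and 277 to 2604 without 1 library (lowest without a siNTC library, highest without siTAZ #1 replicate 1). With siTAZ #2, 1983 rose and 2021 fell, against 3259 and 3165 in the exact test, 3073 and 3024 in the fit of 4 libraries, and 614 to 3031 and 714 to 3011 without 1 library (lowest without a siNTC library). Between the siRNAs, 2137 were higher and 1883 lower with siTAZ #1, against 795 and 703 in the exact test, and 1022 to 2831 and 775 to 2828 without 1 library (lowest without a siTAZ #2 library). The cause was not tested. The exact test on 4 libraries lost every fall of a list gene with siTAZ #1, with an FDR from 0.0585 (SLC44A1) to 0.58 (TCF12). Of the list genes named above that rose with siTAZ #1, it lost CHKA (FDR 0.111). GC content was known for 94% of genes. Depth limits the 5 members under the filter.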
